A study of Mus musculus with 36 samples.

Results

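Interferon-stimulated genes were examined in cultured mouse mesenchymal stem cells (MSCs) from 4 tissues. The 9 genes were chosen by name, as a set of interferon-response genes (Ifit1, Ifit2, Ifit3, Isg15, Irf7, Rsad2, Oasl2, Bst2 and Usp18), from the 24411 genes listed in each RNA-seq file, and not by a threshold on their values. All cells came from 8-week-old C57BL6/J mice without any genetic change or interferon treatment named in the sources used here. Cells of the femoral bone marrow (fBM-MSCs), vertebral bone marrow (vBM-MSCs), adipose tissue (A-MSCs) and lung (P-MSCs) were grown in MesenCult medium and used within 3 passages. The lung and adipose tissues, unlike the marrow, are described as minced and treated with collagenase, so the isolation step and the split of bone marrow from non-bone marrow cannot be told apart. RNA-seq was analysed for 3 libraries each of fBM-MSCs, A-MSCs and P-MSCs and for 2 of vBM-MSCs, whose replicate 3 was not analysed. Chromatin accessibility by ATAC-seq (which marks open chromatin by transposase insertion) was used as 1 pooled list of peaks per tissue. The 4 tissues were taken from the same 3 mice, but no source ties a library to a mouse, so the 11 libraries were tested as independent samples.

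Interferons are cytokines, and those of type I are released when cells sense foreign nucleic acid. Type I interferons bind the receptor Ifnar1/Ifnar2, which signals through the kinases Jak1 and Tyk2 to transcription factors that bind the interferon-stimulated response element (ISRE) in the promoters of their target genes. Interferon gamma acts through the receptor Ifngr1/Ifngr2, and promoters of its target genes often hold the gamma-activated site (GAS). Many of the targets are also expressed at low levels without added interferon, and MSCs are known for antiviral and immunoregulatory genes of this kind.

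Promoter sequences of RefSeq (GRCm38, the build of the authors' mm10 alignment) were matched by symbol for 8 of the 9 genes, all but Usp18. The 250 bases before the start site of the curated transcript (for Ifit2, the first of 2 such sites) are given for 5 of them, because they hold the most abundant member (Bst2), members low in P-MSCs (Ifit1, Isg15) and neighbouring Ifit genes whose levels were ordered differently (Ifit2, Ifit3). Capitals mark matches to the ISRE core GAAANNGAAA or the GAS core TTCNNNGAA, where N is any base, searched on both strands.
Ifit1, chr19:34640639-34640888, plus strand: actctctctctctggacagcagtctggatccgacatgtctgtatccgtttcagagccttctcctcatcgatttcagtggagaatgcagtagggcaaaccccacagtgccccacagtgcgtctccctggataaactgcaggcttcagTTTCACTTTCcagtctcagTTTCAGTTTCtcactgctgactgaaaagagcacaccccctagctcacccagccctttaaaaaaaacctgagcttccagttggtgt
Ifit3, chr19:34583279-34583528, plus strand: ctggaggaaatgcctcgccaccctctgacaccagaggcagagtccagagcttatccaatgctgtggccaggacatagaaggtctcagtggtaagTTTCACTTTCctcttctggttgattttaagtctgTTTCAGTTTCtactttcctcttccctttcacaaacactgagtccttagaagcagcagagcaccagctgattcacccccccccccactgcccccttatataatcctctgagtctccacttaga
Isg15, chr4:156200819-156201068, minus strand: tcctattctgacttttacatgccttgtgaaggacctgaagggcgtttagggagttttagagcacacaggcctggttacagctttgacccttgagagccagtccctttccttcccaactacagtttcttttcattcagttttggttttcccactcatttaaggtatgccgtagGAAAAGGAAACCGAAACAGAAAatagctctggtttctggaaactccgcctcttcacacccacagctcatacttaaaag
Bst2, chr8:71537473-71537722, minus strand: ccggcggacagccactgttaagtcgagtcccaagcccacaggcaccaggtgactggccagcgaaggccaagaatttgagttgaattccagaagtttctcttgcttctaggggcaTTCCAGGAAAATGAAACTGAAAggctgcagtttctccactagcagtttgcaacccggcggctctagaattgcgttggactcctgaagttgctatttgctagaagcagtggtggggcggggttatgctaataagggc
Ifit2, chr19:34550444-34550693, plus strand: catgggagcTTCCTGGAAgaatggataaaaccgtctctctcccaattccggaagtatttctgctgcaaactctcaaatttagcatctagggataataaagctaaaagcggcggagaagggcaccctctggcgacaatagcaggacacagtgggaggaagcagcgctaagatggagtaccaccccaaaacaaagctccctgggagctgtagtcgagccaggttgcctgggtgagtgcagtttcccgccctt

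The ISRE core was found in the window from 250 bases before to 50 bases after the start site of 5 of 8 members (Ifit1, Ifit3, Isg15, Rsad2 and Bst2), against 3.99% of the 27025 genes with a promoter sequence. Isg15 held 3 overlapping copies, Ifit1, Ifit3 and Bst2 held 2 each, and Rsad2 held 1. The GAS core was found in Ifit2 and Bst2, against 9.55% of genes, and in Bst2 it overlaps the first ISRE core. In a list of other antiviral interferon-stimulated genes, 19 of 49 with a promoter sequence held the ISRE core. A match describes the letters only, and these short letters were not tested for binding.

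On GRCm38 the Ifit genes lie together on the plus strand of chromosome 19, with Ifit2 at chr19:34550550-34576534 (3 exons), Ifit3 at chr19:34583119-34588982 (2 exons) and Ifit1 at chr19:34640889-34650009 (2 exons), and 90.3 kb between the starts of Ifit2 and Ifit1. On the minus strand lie Isg15 at chr4:156199424-156200818 (2 exons), Irf7 at chr7:141263183-141266499, Rsad2 at chr12:26442743-26456452 (6 exons) and Bst2 at chr8:71534255-71537472 (5 exons). Oasl2 at chr5:114896926-114912245 and Usp18 at chr6:121245906-121270917 (11 exons) are on the plus strand. The spans of Ifit2 and Ifit3 also cover predicted transcripts, which begin before the curated start sites used for the promoters. Ifit1 overlaps Ifit1bl1, Isg15 (chromosome 4) overlaps Gm46878 and Usp18 (chromosome 6) overlaps Gm44148. Because the libraries carry no strand information, reads from these overlaps cannot be told apart. Ifit3 also has a near-identical copy, Ifit3b, with 95.7% identity over the shorter of the 2 transcripts.

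The libraries held from 19569650 to 40517739 expected counts, as RSEM, the authors' quantifier, estimated them. As in any bulk sample, fewer cells that express a gene and less RNA per cell cannot be told apart. The MSC and fibroblast markers fixed for this work summed to between 2010 and 4980 TPM (RSEM's length-scaled transcript unit) in every library, and Col1a1, a fibrillar collagen, had tissue means from 530 to 1270 TPM. The marker sums were higher in bone marrow, at 3120 to 4980 TPM in fBM-MSCs and 3490 to 3910 TPM in vBM-MSCs. They were 2010 to 2140 TPM in A-MSCs and 2250 to 2450 TPM in P-MSCs. Siglech, a plasmacytoid dendritic cell marker, had no counts in any library. It is 1 of 8 plasmacytoid dendritic and lymphoid markers, and others of this list were detected. Summed over the list, A-MSC libraries held 2.3 to 2.37 TPM and P-MSC libraries 0.16 to 1.15 TPM. The vBM-MSC libraries ranged from 0 to 2.74 TPM, while all 8 markers lacked counts in every fBM-MSC library. Epcam had tissue means of at most 0.317 TPM, but other epithelial markers were present in A-MSCs, as were endothelial markers, both described further on.

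The 9 genes were unevenly expressed. Bst2, which encodes tetherin, a membrane protein that holds budding virus on the cell surface, was the most abundant, with a mean of 40.2 TPM over the 11 libraries. Ifit2 followed with 5.57, Isg15 with 4.64, Ifit3 with 2.70, Irf7 with 1.54, Usp18 with 1.38 and Ifit1 with 0.936 TPM. Oasl2, a 2'-5' oligoadenylate synthetase-like protein, averaged 0.535 TPM and Rsad2, the antiviral enzyme viperin, 0.0745 TPM. P-MSCs had the lowest levels of Ifit1, Isg15, Usp18 and Oasl2, below every library of the other tissues, and the highest levels of Ifit2, above every other library. How many of all genes separate P-MSCs from the other libraries in this way was not counted.

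**Figure D1:**
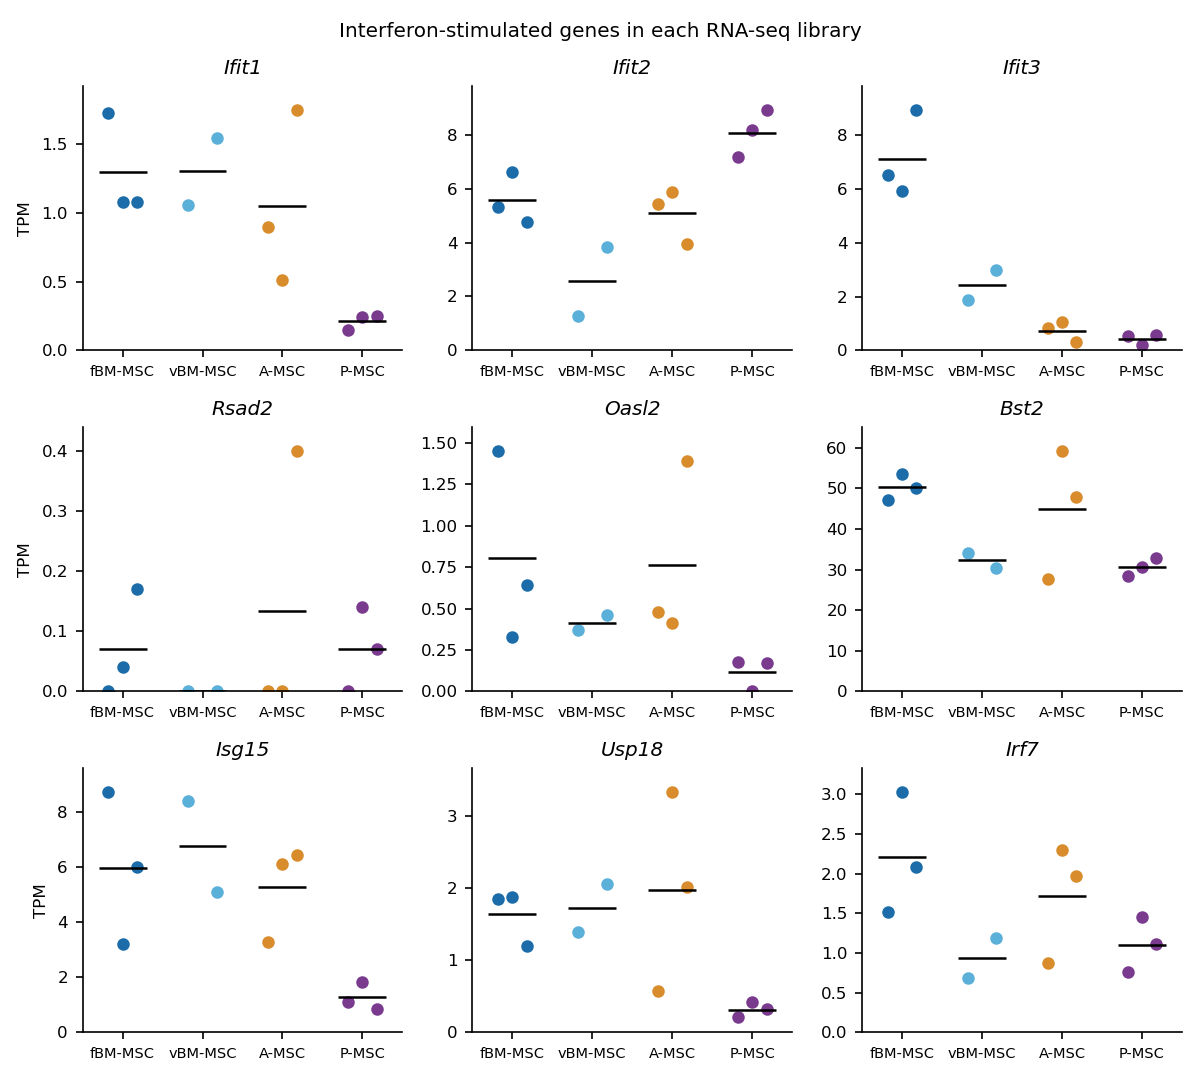
The TPM of each of the 9 genes is plotted on a linear axis for each RNA-seq library, grouped by tissue, with a black line at the tissue mean. The P-MSC points lie below all others for Ifit1, Isg15, Usp18 and Oasl2 and above all others for Ifit2, while Ifit3 is highest in fBM-MSCs.

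Across the 4 tissues, 6 of the 8 members with enough counts to be tested differed, by the quasi-likelihood test of edgeR with Benjamini-Hochberg adjustment over 12509 genes at an adjusted p of 0.05. Over all genes, 60.6% of tested genes passed this test, so that such differences were common among all genes. The count fell to 2 without P-MSC replicate 1, where 52.8% of all genes passed. Rsad2 stayed under the filter, a CPM of 1 or more in 2 or more libraries, and was not tested.

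The Ifit genes encode proteins that bind viral RNA and block its translation. Ifit3 was graded among the tissues. The fBM-MSC libraries held 6.52, 5.92 and 8.92 TPM and the vBM-MSC libraries 1.88 and 2.98 TPM. A-MSC libraries held 0.84, 1.05 and 0.32 TPM, and P-MSC libraries 0.52, 0.19 and 0.57 TPM. The fBM-MSC libraries did not overlap any other tissue, and the vBM-MSC libraries lay above A-MSCs and P-MSCs, which overlapped each other. Ifit3 differed among the tissues (edgeR, adjusted p = 0.000145). It was higher in fBM-MSCs than in P-MSCs by 4.18 ± 0.55 (log2, SE) (edgeR, adjusted p = 8.86e-05) and than in A-MSCs by 3.19 ± 0.52 (edgeR, adjusted p = 0.000597). Between vBM-MSCs and P-MSCs the log2 difference was 2.57 ± 0.55 (edgeR, adjusted p = 0.00352). The step from vBM-MSCs to fBM-MSCs, a log2 difference of 1.61 ± 0.56, missed the threshold (edgeR, adjusted p = 0.0811), as did that of vBM-MSCs over A-MSCs (1.58 ± 0.54, edgeR, adjusted p = 0.0504) and of A-MSCs over P-MSCs (0.99 ± 0.51, edgeR, adjusted p = 0.168). DESeq2 called the first and the second of these (adjusted p = 0.0246 and 0.024).

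Reads of Ifit3 and Ifit3b were split by RSEM. Ifit3 took 77.2% to 92.1% of their summed counts in the bone marrow libraries and 27.7% to 56.1% in those of A-MSCs. In P-MSCs, where totals were low, its part ranged over 30.9% to 100%. With the 2 genes added together, a choice made after seeing the data, the sum was higher in fBM-MSCs than in P-MSCs by 3.61 ± 0.37 (log2, SE, edgeR, adjusted p = 1.56e-05). The sum also differed between fBM-MSCs and vBM-MSCs (1.48 ± 0.39, edgeR, adjusted p = 0.03) and between A-MSCs and P-MSCs (1.39 ± 0.35, edgeR, adjusted p = 0.0119). Other differences of the sum were smaller than those of Ifit3: 2.22 ± 0.35 for fBM-MSCs over A-MSCs (edgeR, adjusted p = 0.000469), 2.18 ± 0.26 for bone marrow over non-bone marrow (edgeR, adjusted p = 4.05e-05) and 0.74 ± 0.37 for vBM-MSCs over A-MSCs (edgeR, adjusted p = 0.169).

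Ifit1 was at 1.73, 1.08 and 1.08 TPM in the fBM-MSC libraries and at 1.06 and 1.55 TPM in those of vBM-MSCs. A-MSC libraries had 0.90, 0.51 and 1.75 TPM, and P-MSC libraries 0.15, 0.24 and 0.25 TPM. The P-MSC libraries lay below the other 8, which overlapped, but held only 10, 12.45 and 14.89 expected counts. Ifit1 was lower in P-MSCs, with a log2 difference for fBM-MSCs of 2.75 ± 0.61 (edgeR, adjusted p = 0.0033). The difference was 2.70 ± 0.65 for vBM-MSCs (edgeR, adjusted p = 0.00678) and 2.53 ± 0.61 for A-MSCs (edgeR, adjusted p = 0.00944), or 1.93 without A-MSC replicate 3. Its call among the 4 tissues (edgeR, adjusted p = 0.0111) was lost without P-MSC replicate 1, at 0.0535.

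Ifit2 differed from Ifit1 and Ifit3 in its order, with the highest levels in P-MSCs. The P-MSC libraries held 7.16, 8.16 and 8.91 TPM and the fBM-MSC libraries 5.32, 6.60 and 4.77 TPM. A-MSC libraries held 5.41, 5.87 and 3.95 TPM and vBM-MSC libraries 1.29 and 3.85 TPM. The P-MSC libraries were above every other library and the vBM-MSC libraries below every other library. Ifit2 was lower in vBM-MSCs than in P-MSCs by a log2 difference of -1.60 ± 0.34 (edgeR, adjusted p = 0.00351), which was -1.08 without vBM-MSC replicate 1 and -2.47 without vBM-MSC replicate 2. The difference between fBM-MSCs and P-MSCs (-0.42 ± 0.29, edgeR, adjusted p = 0.257) and that between A-MSCs and P-MSCs (-0.48 ± 0.29, edgeR, adjusted p = 0.233) did not pass the test, although the libraries did not overlap. It was higher in fBM-MSCs than in vBM-MSCs (1.19 ± 0.34, edgeR, adjusted p = 0.0422) and lower in vBM-MSCs than in A-MSCs (-1.13 ± 0.34, edgeR, adjusted p = 0.0312), and both calls were lost without vBM-MSC replicate 1 (edgeR, adjusted p = 0.195 and 0.136). Without vBM-MSC replicate 2 these differences were 2.05 and -1.99. Leaving out any of 9 single libraries (all but fBM-MSC replicate 3 and vBM-MSC replicate 2) ended the first call, leaving out A-MSC replicate 1 or 2 also ended the second (0.0679 and 0.0838), and a model of the 2 tissues by themselves ended both.

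Isg15, a ubiquitin-like protein that is joined to other proteins, and Usp18, the protease that removes it and also restrains the type I receptor, shared the low level in P-MSCs. Isg15 was at 8.72, 3.19 and 5.99 TPM in the fBM-MSC libraries, 8.39 and 5.10 TPM in the vBM-MSC libraries and 3.29, 6.12 and 6.43 TPM in the A-MSC libraries, against 1.12, 1.83 and 0.85 TPM in those of P-MSCs. Usp18 was at 1.85, 1.87 and 1.2 TPM in the fBM-MSC libraries, 1.39 and 2.05 TPM in the vBM-MSC libraries and 0.57, 3.33 and 2.01 TPM in the A-MSC libraries, against 0.21, 0.42 and 0.32 TPM in those of P-MSCs. For both, P-MSCs lay below all 8 other libraries, and the other tissues overlapped. The P-MSC values rest on few reads, with 16, 19 and 10 counts of Isg15 and 9, 14 and 12 of Usp18. Isg15 was higher in fBM-MSCs than in P-MSCs by 2.38 ± 0.62 (log2, edgeR, adjusted p = 0.0079), in vBM-MSCs by 2.53 ± 0.66 (edgeR, adjusted p = 0.0103, and 0.0816 without vBM-MSC replicate 1), and in A-MSCs by 2.26 ± 0.61 (edgeR, adjusted p = 0.0164). The last of these calls was lost without A-MSC replicate 3 (0.0504), P-MSC replicate 1 (0.0565) or P-MSC replicate 3 (0.0647). Usp18 was higher in fBM-MSCs by 2.49 ± 0.68 (edgeR, adjusted p = 0.0109), in vBM-MSCs by 2.50 ± 0.73 (edgeR, adjusted p = 0.0178) and in A-MSCs by 2.83 ± 0.69 (edgeR, adjusted p = 0.00986), or 2.24 without A-MSC replicate 2. Its call in vBM-MSCs was lost without vBM-MSC replicate 2 (0.0624), P-MSC replicate 1 (0.0623) or P-MSC replicate 3 (0.0504). Their calls among the 4 tissues (edgeR, adjusted p = 0.0207 and 0.0213) were lost without P-MSC replicate 1 (0.0787 and 0.0887) and without P-MSC replicate 3 (0.0885 and 0.0753), and that of Usp18 also without P-MSC replicate 2 (0.053).

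Oasl2 was at 1.45, 0.33 and 0.64 TPM in the fBM-MSC libraries and at 0.37 and 0.46 TPM in those of vBM-MSCs. A-MSC libraries held 0.48, 0.41 and 1.39 TPM and P-MSC libraries 0.18, 0 and 0.17 TPM. The P-MSC libraries were below all others, with 15, 0 and 12 counts. Only the comparison of fBM-MSCs with P-MSCs passed the test, with a log2 difference of 2.88 ± 1.05 (edgeR, adjusted p = 0.0403), and it was lost without fBM-MSC replicate 1 (2.13, edgeR, adjusted p = 0.135) or any P-MSC library. A model of the 2 tissues by themselves also ended this call (edgeR, adjusted p = 0.0556). A-MSCs were higher than P-MSCs by a similar log2 difference, 2.87 ± 1.04, that missed the threshold (edgeR, adjusted p = 0.057). It ranged from 2.07 to 3.34 when single libraries were left out.

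Bst2 was at 47.1, 53.6 and 50.2 TPM in the fBM-MSC libraries and at 34.2 and 30.5 TPM in those of vBM-MSCs. A-MSC libraries held 27.7, 59.2 and 47.8 TPM and P-MSC libraries 28.5, 30.7 and 32.9 TPM. The fBM-MSC libraries lay above those of vBM-MSCs and P-MSCs, and the A-MSC libraries spanned the whole range. Bst2 was higher in fBM-MSCs than in P-MSCs by 0.85 ± 0.23 (log2, edgeR, adjusted p = 0.0098) and in A-MSCs than in P-MSCs by 0.76 ± 0.23 (edgeR, adjusted p = 0.0263). The latter call was lost without A-MSC replicate 2 (0.54, edgeR, adjusted p = 0.112), without A-MSC replicate 3 or any P-MSC library, and with limma on log2(TPM + 1) (0.47, adjusted p = 0.103). Its call among the 4 tissues was lost without P-MSC replicate 1 or 2 (edgeR, adjusted p = 0.0533 and 0.0521).

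Irf7, the transcription factor that amplifies type I interferon production, was at 1.52, 3.03 and 2.09 TPM in the fBM-MSC libraries and at 0.69 and 1.19 TPM in those of vBM-MSCs. A-MSC libraries held 0.87, 2.30 and 1.97 TPM and P-MSC libraries 0.76, 1.45 and 1.11 TPM. The tissues overlapped except that fBM-MSCs lay above vBM-MSCs and P-MSCs, and no comparison passed the test (edgeR, lowest adjusted p = 0.096, fBM-MSCs over P-MSCs by a log2 difference of 1.16 ± 0.54).

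Rsad2 was barely detected. It had counts of 0, 3 and 16 in the fBM-MSC libraries and 0 in both vBM-MSC libraries. A-MSC libraries had 0, 0 and 37 counts and P-MSC libraries 0, 11 and 6. The A-MSC library with 37 counts was replicate 3, the library with the highest Ifit1, Isg15 and Oasl2 of that tissue. It also had the lowest Ifit2 (3.95 TPM) and Ifit3 (0.32 TPM), and Bst2, Usp18 and Irf7 were highest in replicate 2. A count of 0 allows up to 3 counts, or 0.0998 and 0.0837 CPM, in the 2 vBM-MSC libraries. Without the filter on low counts, Rsad2 passed in no comparison (edgeR, adjusted p = 0.416 among the 4 tissues, the lowest of any pair being 0.221).

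**Figure D2:**
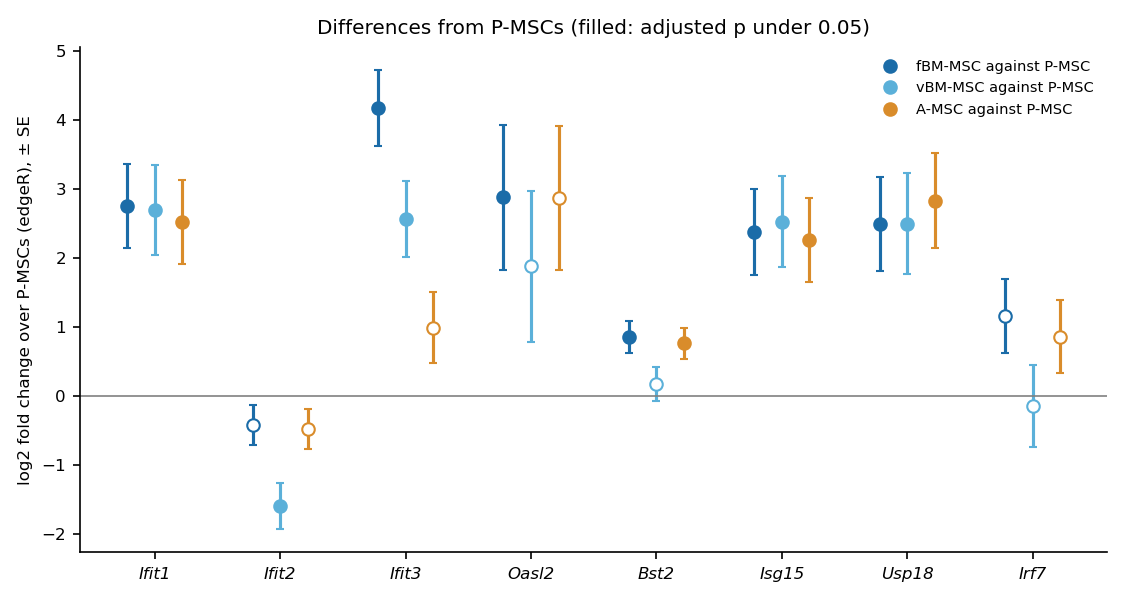
The log2 fold change over P-MSCs (edgeR, error bars: SE) of the 8 tested genes is plotted for fBM-MSCs, vBM-MSCs and A-MSCs, with filled points where the adjusted p was under 0.05. Ifit1, Isg15 and Usp18 are filled above 0 in all 3 tissues, and Ifit2 is below 0 in all 3, filled only in vBM-MSCs.

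The direction of the calls depended on the pair of tissues. In fBM-MSCs over P-MSCs, 6 of 8 members were called, all higher in fBM-MSCs (24.7% of all genes were higher and 23% lower). In vBM-MSCs over P-MSCs, 4 were higher and Ifit2 was lower (21% and 17.7%). In A-MSCs over P-MSCs, 4 were higher and none lower (16% and 14.9%), and 2 were called without A-MSC replicate 3, P-MSC replicate 1 or P-MSC replicate 3. Without these libraries, 23%, 22.1% and 21.6% of all genes were called in either direction, against 30.9% with every library. The median log2 difference of the 8 members from P-MSCs was 2.43 in fBM-MSCs and 2.19 in vBM-MSCs, and that in A-MSCs was 1.63, beside medians of all tested genes of 0.02, 0.03 and -0.01. These 3 comparisons share the P-MSC libraries.

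Among the other tissues, few members passed. In fBM-MSCs over vBM-MSCs, only Ifit2 was called (5.24% of all genes were higher and 7.56% lower), in fBM-MSCs over A-MSCs only Ifit3 (20.6% and 20.3%), and in vBM-MSCs over A-MSCs only Ifit2, lower in vBM-MSCs (13.2% and 12.4%). For the 2 bone marrow tissues together against the 2 others, Ifit1 (1.46 ± 0.43, edgeR, adjusted p = 0.0152), Ifit3 (2.88 ± 0.38, edgeR, adjusted p = 8.42e-05) and Isg15 (1.32 ± 0.44, edgeR, adjusted p = 0.0266) were higher in bone marrow and Ifit2 was lower (-0.77 ± 0.22, edgeR, adjusted p = 0.0136). All genes showed 24.8% higher and 22.4% lower. The Isg15 call was ended by leaving out any of 5 single libraries (fBM-MSC, vBM-MSC, A-MSC or P-MSC replicate 1, or P-MSC replicate 3), with the highest adjusted p (edgeR, 0.109) without that of vBM-MSCs.

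Pairs of members without Ifit2 had positive correlations over the libraries. Pearson's r of log2(TPM + 1) over the 11 libraries, which share 4 tissues, had a median of 0.535 (0.251 to 0.867) over the 21 pairs without Ifit2 and of -0.338 (-0.733 to 0.267) over the 7 pairs with it, of which only that with Irf7 was positive. After subtracting tissue means, which rest on 2 or 3 libraries each, the 28 pairs went both ways, from -0.553 to 0.873 with a median of -0.0402. The highest values were those of Bst2 with Usp18 (0.873), Ifit1 with Oasl2 (0.835), Irf7 with Usp18 (0.763), Irf7 with Bst2 (0.744) and Isg15 with Oasl2 (0.541), and the lowest those of Ifit2 with Isg15 (-0.553) and Ifit1 with Ifit3 (-0.467). These correlations are descriptions without a test. The 5 genes outside the set with the closest profile to the mean z-score of the members were Tmem160 (r = 0.923), Chmp1a (0.91), Dtx3l (0.907), Enho (0.905) and Plekhb2 (0.904), over 11 libraries.

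The upstream part of the pathway was then described with lists of genes. Transcripts of the interferons themselves were at or near 0. Of 21 ligand genes, 18 had no count in any library, Ifnb1 and Ifna13 had 2 counts each in 1 library, and Ifnz had 50.3 counts over 8 libraries. None was tested.

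Receptors and JAK-STAT components were broadly present. Of 12 genes, 10 differed among the tissues, against 60.6% of all genes, and 7 were higher and none lower in fBM-MSCs than in P-MSCs (median log2 difference 0.55), against 24.7% and 23% of all genes. Ifngr2, a chain of the interferon gamma receptor, was at 171 ± 27.2 TPM (SD, n = 3) in fBM-MSCs and 88.0 ± 3.05 TPM in P-MSCs, a log2 difference of 1.08 (edgeR, adjusted p = 6.34e-05). Ifnar2 was at 82.8 ± 8.19 and 55.0 ± 4.62 TPM (0.68, edgeR, adjusted p = 0.000661). Ifnar1, the other type I receptor chain, was at 15.1 ± 1.70 and 15.5 ± 0.270 TPM and was highest in vBM-MSCs, at 21.9 ± 4.74 TPM (n = 2). Ifnlr1, of the type III receptor, averaged 0.683 TPM in fBM-MSCs and had no counts in A-MSCs or P-MSCs.

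Calls among the sensors of nucleic acid and the negative regulators were about as frequent as among all genes, of which 24.7% were higher and 23% lower in fBM-MSCs than in P-MSCs. Of 17 tested sensors, adaptors and interferon regulatory factors, 5 were higher and 3 lower in this comparison. Tlr4, a receptor of bacterial lipopolysaccharide, was higher (15.3 ± 3.08 against 10.9 ± 1.48 TPM). Mb21d1, the DNA sensor cGAS, was lower (0.433 ± 0.0874 against 2.39 ± 0.581 TPM), as was its partner Tmem173, or STING (13.0 ± 4.98 against 29.2 ± 2.0 TPM). Myd88, the Toll-like receptor adaptor, was at 30.3 ± 2.68 TPM in vBM-MSCs (n = 2), above 15 ± 1.90 TPM in fBM-MSCs. Among 12 negative regulators, 3 were higher and 3 lower. Samhd1, which degrades nucleotides, was at 6.07 ± 0.238 TPM in fBM-MSCs and 23.1 ± 0.837 TPM in P-MSCs (log2 difference -1.80, edgeR, adjusted p = 3.26e-06). The RNase H2 subunits Rnaseh2a (10.8 ± 1.48 against 34.3 ± 2.15 TPM) and Rnaseh2b (14.4 ± 1.53 against 34.6 ± 2.46 TPM) were also lower in fBM-MSCs, and the DNA exonuclease Trex1 was highest in A-MSCs, at 52.1 ± 3.57 TPM.

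Among 43 other antiviral genes tested, 14 were higher and 2 lower in fBM-MSCs than in P-MSCs (median 0.83), beside 24.7% and 23% of all genes. The counts were 16 and 4 for vBM-MSCs (0.73), beside 21% and 17.7%, and 19 and 5 for A-MSCs (0.90), beside 16% and 14.9%. Against A-MSCs, 8 were higher and 11 lower in fBM-MSCs (-0.15), beside 20.6% and 20.3%. The lists were not tested as sets. Ifitm3, which blocks viral entry, was at 1050 ± 130 TPM in fBM-MSCs and 414 ± 31.5 TPM in P-MSCs. Ifi27 was at 239 ± 23.3 TPM in A-MSCs and 71.5 ± 7.44 TPM in P-MSCs. Tor3a fell from 22.2 ± 1.62 TPM in fBM-MSCs to 4.32 ± 0.318 TPM in P-MSCs, while Slfn9 was at 6.30 ± 0.530 TPM in P-MSCs against 0.587 ± 0.102 TPM in fBM-MSCs.

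The MHC class I genes, which present peptides to T cells and are inducible by interferon, were mostly higher in fBM-MSCs than in P-MSCs. Of 14 tested, 12 were higher and none lower in this comparison (median log2 difference 1.91, against 24.7% and 23% of all genes), and 3 were higher in fBM-MSCs than in vBM-MSCs (median 0.28, against 5.24% of all genes). H2-K1 was among those 3, while H2-T23, Tap1 and Tapbp did not pass there (edgeR, adjusted p = 0.606, 0.843 and 0.0661). H2-K1 was at 186 ± 72.1 TPM in fBM-MSCs and 60.5 ± 12.8 TPM in vBM-MSCs (n = 2). Its level was 51.3 ± 9.05 TPM for A-MSCs and 20.5 ± 1.80 TPM for P-MSCs. Between fBM-MSCs and P-MSCs, H2-T23 was at 48.5 ± 1.58 against 9.08 ± 1.31 TPM, Tapbp, a peptide-loading chaperone, at 85.5 ± 23.9 against 16.4 ± 1.2 TPM, and the peptide transporter Tap1 at 12.1 ± 2.58 against 2.94 ± 0.244 TPM. Of 9 interferon-inducible GTPases, 5 were higher and 1 lower in fBM-MSCs than in P-MSCs, against the same shares of all genes, with Irgm1 at 95.0 ± 26.5 against 31.3 ± 1.54 TPM among the former and Gvin1 at 0.0567 ± 0.0321 against 1.23 ± 1.38 TPM.

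**Figure D3:**
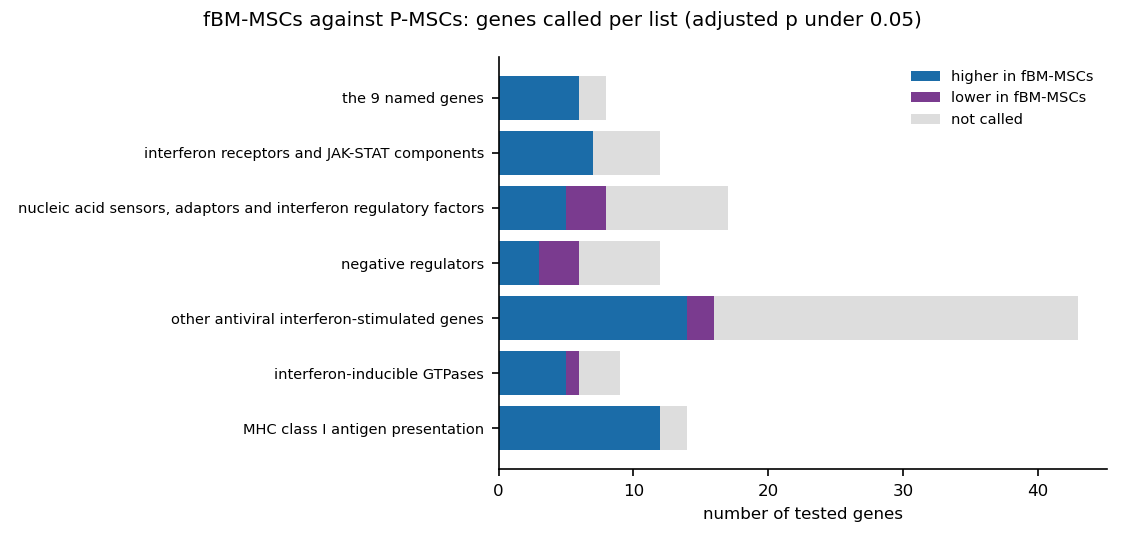
Bars give the number of tested genes of each list that were higher, lower or not called in fBM-MSCs against P-MSCs (edgeR, adjusted p under 0.05). The MHC class I list has 12 of 14 genes higher and none lower, and the list of negative regulators 3 and 3 of 12, where 24.7% of all tested genes were higher and 23% lower.

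Markers of other cells varied among the tissues. The macrophage and haematopoietic markers summed to between 45.5 and 72.2 TPM in fBM-MSC libraries and 24.8 and 55.9 TPM in vBM-MSC libraries. The sums were 19.5 to 28.2 TPM for A-MSCs and 15.9 to 17.3 TPM for P-MSCs. Of the 15 measured, 6 had no counts in fBM-MSCs (Adgre1, Aif1, Itgam, Tyrobp, C1qa and C1qb) and 5 had none in P-MSCs (Adgre1, Aif1, Fcer1g, Ctss and C1qb), so that Fcer1g and Ctss had counts in fBM-MSCs but not in P-MSCs, and Itgam, Tyrobp and C1qa the reverse. In vBM-MSCs 5 had no counts and in A-MSCs 2, and Ptprc averaged 0.0133 TPM in fBM-MSCs and 0.27 TPM in P-MSCs. Of the 5 tested, 3 were higher and 1 lower in fBM-MSCs than in P-MSCs, beside 24.7% and 23% of all genes. Cd68, also expressed outside macrophages, was at 14.6 ± 3.37 TPM in fBM-MSCs and 6.18 ± 1.51 TPM in P-MSCs (log2 difference 1.16, edgeR, adjusted p = 0.0294). Csf1r, the receptor of macrophage colony-stimulating factor, went the other way, with 0.74 ± 0.145 TPM in fBM-MSCs and 2.54 ± 0.289 TPM in P-MSCs (-1.66, edgeR, adjusted p = 0.000892), and was highest in A-MSCs, at 5.9 ± 0.58 TPM. Endothelial markers summed to between 6.86 and 60.7 TPM in A-MSCs and 3.98 and 9.56 TPM in P-MSCs. Their sums were 0.11 to 2.12 TPM for the fBM-MSC libraries and 1.56 to 5.67 TPM for those of vBM-MSCs. The fBM-MSC sums thus lay below those of P-MSCs, in the comparison where 6 members and 12 MHC class I genes were higher in fBM-MSCs. Of 5 tested endothelial markers, 2 were lower in fBM-MSCs than in P-MSCs (median log2 difference -3.51), beside 23% of all genes. In vBM-MSCs 2 were also lower than in P-MSCs, beside 17.7% of all genes. Epithelial markers summed to between 4.76 and 12.4 TPM in A-MSCs, with 3 of 7 genes at a mean of 1 TPM or more, and to at most 0.68 TPM in P-MSCs. The epithelial sums of A-MSCs, in which 4 members were higher than in P-MSCs, lay above those of P-MSCs, and the endothelial sums of these tissues overlapped. The part of these cells in the differences between tissues was not tested.

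Open chromatin at the promoters was counted as a summit within 1 kb of a start site with a −log10 q of at least 7, the threshold of the study. In each tissue 5 of 9 members had such a summit, near the share of all genes and under that of the genes tested in RNA-seq. Among all genes with a curated start site the share was 50.7% in fBM-MSCs and 51.6% in vBM-MSCs, with 52.6% in A-MSCs and 51.7% in P-MSCs. Among the genes tested in RNA-seq it was, in this order, 87.1%, 89%, 89.6% and 88.8%. Ifit2, Irf7, Bst2 and Usp18 had a summit in all 4 tissues, Isg15 in fBM-MSCs and A-MSCs, Ifit1 in vBM-MSCs and Rsad2 in P-MSCs. Ifit3 and Oasl2 had none in any tissue. For Ifit3, with the highest RNA level in fBM-MSCs, the nearest summit past the threshold within 10 kb lay at -6235 bases from its start, in vBM-MSCs, and none passed in fBM-MSCs. The authors kept only reads that align once, and the promoter windows of Ifit3 and Ifit3b were 75.7% identical over 300 bases. Whether reads were lost there was not tested.

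The fold enrichment of the Ifit2 summit was 19.13 for P-MSCs and 12.88 for A-MSCs, against 10.30 for vBM-MSCs and 8.09 for fBM-MSCs, so that the tissue with the most Ifit2 RNA had the highest value, although fBM-MSCs and vBM-MSCs did not follow the order of the RNA. Irf7 was at 6.25 in P-MSCs and at 10.67 to 11.04 elsewhere. Bst2 ranged from 13.98 to 16.19 and Usp18 from 12.14 to 14.35, with 13.98 in P-MSCs. The median over all promoters with a summit was itself 13.61 in fBM-MSCs and 16.19 in P-MSCs. Each tissue has 1 pooled list without replicates, so none of these differences was tested. Within 100 bases of a promoter summit, the ISRE core was present for 3 of 5 members in each tissue, Bst2 and Usp18 among them, against 1.25% of genes with a summit in fBM-MSCs and 1.55% in vBM-MSCs.

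**Figure D4:**
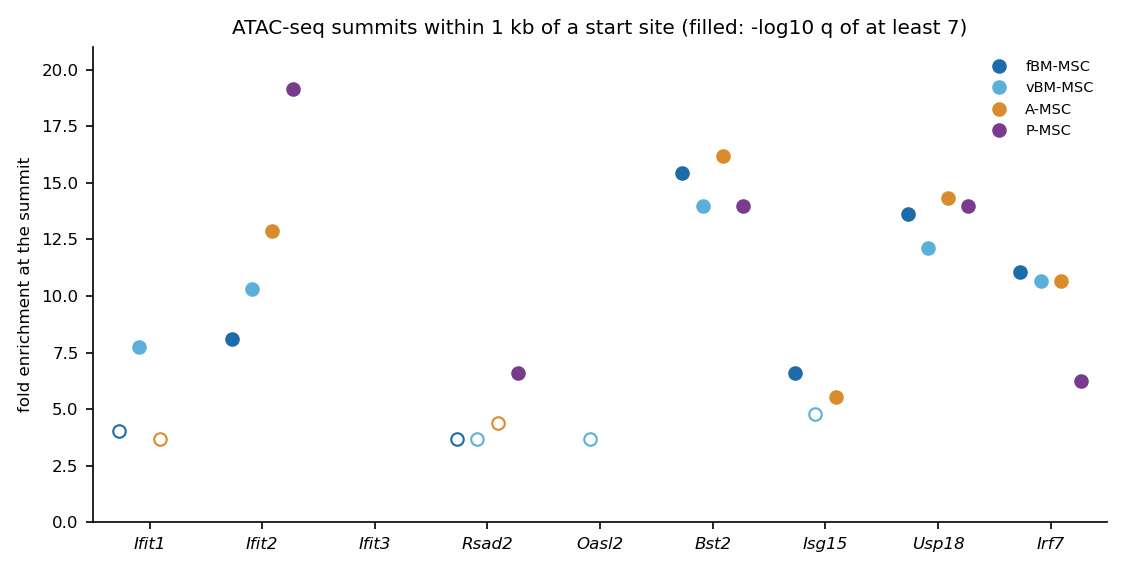
The fold enrichment of the strongest ATAC-seq summit within 1 kb of a start site is plotted for each member and tissue, with filled points for a −log10 q of at least 7 and open points below it. The Ifit2 values rise to 19.13 in P-MSCs, and Ifit3 has no point.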

How the data were processed

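RNA-seq and ATAC-seq of cultured mouse MSCs were reanalysed from the processed values. The authors used the Smart-seq2 method, which keeps no strand and adds no molecular identifiers, and ran RSEM with STAR against mm10. The deposited expected counts are RSEM's estimates and are not normalized. The deposited TPM values are scaled by RSEM for transcript length and to a fixed sum. For ATAC-seq, the authors trimmed adaptors, kept uniquely aligned reads (Bowtie), dropped duplicates (Picard), moved read ends to the Tn5 cut and called peaks with MACS2 on the 6 samples (3 replicates) of each tissue. The deposited lists give each summit's fold enrichment over background as a ratio, its −log10 q and its offset in bases from the region start. Software versions are not given in the sources used here. Replicate 3 of the vBM-MSC RNA-seq was not analysed here.

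After rounding, expected counts entered edgeR 4.0.16 under R 4.3.3 (two-sided quasi-likelihood test, TMM, a CPM of 1 or more in 2 or more libraries, Benjamini-Hochberg adjusted p under 0.05). A single model of 4 tissues was fitted to the 11 libraries, and the p-values measure the spread between these libraries. In simulated data of the comparison of A-MSCs with P-MSCs, 80% of 200 genes changed by 4-fold and 37% of those changed by 2-fold were recovered. The 200 genes were drawn at random from all tested genes, and recovery at the members' own levels was not measured. Alternatives were DESeq2 1.42.0, limma 3.58.1 on log2(TPM + 1) and log2(TPM + 0.1), upper-quartile scaling, no filter, models of 2 tissues, a replicate block and leaving out each library. The members, the pathway lists and the markers were chosen with earlier results of these data known. Named genes were all members, up to 4 genes of each pathway list with the smallest p among the 4 tissues, the 5 genes of closest profile, markers and paralogs. Of the paralogs, Oasl1, Ifit1bl1 and Ifit1bl2 were not tested, with tissue means of at most 0.603 TPM. The plasmacytoid dendritic and lymphoid markers summed to at most 2.74 TPM. Floors cover counting error only.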

Additional observations from a re-analysis of the deposited data

How the results depend on the processing

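No member's called fold change turned its direction under any alternative that was run. Of the values for single members, 660 kept their side of the threshold, 48 lost a call and 19 gained one. For fBM-MSCs against vBM-MSCs, where 1 member was called, DESeq2, limma on log2(TPM + 1) and the sum of Ifit3 with Ifit3b called 2 and a model of the 2 tissues by themselves called 0. Over all genes, the main fit called 12.8% and these fits 17.5%, 15.4%, 12.8% and 2.53%, in this order. For vBM-MSCs against A-MSCs, where 1 was called, upper-quartile scaling, DESeq2 and both limma fits called 2 and the model of the 2 tissues called 0. The shares of all genes were 25.6% in the main fit and 25.5%, 29.3%, 26.2%, 25.8% and 21.3% in these fits. Leaving out single libraries gave 2 to 6 called members among the 4 tissues, 0 to 1 for fBM-MSCs against vBM-MSCs, 0 to 2 for vBM-MSCs against A-MSCs, 2 to 4 for A-MSCs against P-MSCs, 5 to 6 for fBM-MSCs against P-MSCs, 4 to 5 for vBM-MSCs against P-MSCs and 3 to 5 for bone marrow against non-bone marrow. The shares of all genes called moved as well. In the order above they were 52.4% to 62.9%, 4.9% to 15.8%, 18.3% to 29.1% and 21.6% to 34.9%. For the remaining comparisons they were 39.8% to 50.3%, 29.5% to 41.9% and 42.7% to 47.8%. The list of sensors, where alternatives were added after seeing the data, went from 8 genes called between fBM-MSCs and P-MSCs to 5 without fBM-MSC replicate 2 or P-MSC replicate 1, its range being 5 to 9. Without these libraries 42.3% and 40.2% of all genes were called there, against 47.7% with every library. Members with a promoter summit went from 5 to 3 in fBM-MSCs and in P-MSCs at a −log10 q of at least 20, and from 5 to 8 in vBM-MSCs with every listed summit. The causes were not tested.

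No source says whether libraries of the same replicate number share a mouse. Deviations from tissue means of same-numbered libraries correlated between -0.0279 and 0.125, with 1 of 15 pairs above 0.1. Such correlations, from 2 or 3 libraries a tissue, cannot decide whether the samples are paired. With the replicate block, 5 members were called among the 4 tissues, 6 for fBM-MSCs against P-MSCs, 5 for A-MSCs against P-MSCs and 3 for bone marrow against non-bone marrow. Over all genes the block called 58.6%, 47%, 30.9% and 46.2% in this order, against 60.6%, 47.7%, 30.9% and 47.2% in the main fit. The replicate block ended 2 calls of Isg15, that among the 4 tissues (adjusted p = 0.0506) and that between bone marrow and non-bone marrow (1.25, adjusted p = 0.0702), and gained that of Oasl2 between A-MSCs and P-MSCs (adjusted p = 0.0478).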
